A study of Mus musculus with 10 samples.

Results

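CC chemokines are small secreted proteins that attract leukocytes through G protein-coupled receptors. Described here are 10 mouse genes of this family, Ccl2, Ccl3, Ccl4, Ccl5, Ccl6, Ccl7, Ccl9, Ccl12, Ccl17 and Ccl22. They were taken by symbol from the 24411 genes in the count files, of which 17701 had a read in at least 1 library. All 10 of these genes had a read. The RNA-seq libraries came from 2 kinds of microglia, the resident macrophages of the brain. Primary microglia were shaken off mixed glial cultures from the brains of 3-day-old ICR mice, with tissue of 12 mice pooled, and over 92% of the cells carried CD11b. BV2 is an immortalised mouse microglial line. Every library, controls included, came from cells given EPZ-6438 at 10 uM, a small molecule that blocks EZH2, the enzyme that methylates histone H3 at lysine 27, so none of the comparisons measures the inhibitor itself. The groups at 4 h were primary microglia without lipopolysaccharide (LPS, n = 3), primary microglia with LPS at 10 ng/ml (n = 3), BV2 cells without LPS (n = 2) and BV2 cells with LPS at the same dose (n = 2). The series asks whether EZH2 inhibition limits the activation of neonatal microglia. The comparisons below ask how these chemokine genes responded to LPS under the inhibitor in each cell type. The labels do not tell whether replicates were separate cultures, so the p-values speak only of the spread among these libraries, which may be technical.

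LPS is a component of the outer membrane of Gram-negative bacteria that is sensed by Toll-like receptor 4 with the help of CD14. One arm of its signalling activates NF-kB, and another leads through IRF3 to interferon beta. Chemokine genes are classic targets of both arms in macrophages and microglia. The mouse ligands of CCR2, which recruit monocytes, include CCL2, CCL7 and CCL12. CCL3, CCL4 and CCL5 attract monocytes, T cells and other leukocytes, and CCL3 and CCL5 bind CCR1. CCL6 and CCL9 are rodent ligands of CCR1, and CCL17 and CCL22 are the ligands of CCR4, known from dendritic cells and alternatively activated macrophages.

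Gene counts per library ran from 2750988 to 3684012. Levels are given as CPM, the usual scaling of read counts to library size, here with TMM-scaled sizes. Where a library had no count of a gene, up to 3 counts remain possible. That is 0.814 to 1.09 CPM on library sizes before TMM scaling. On TMM-scaled sizes it is at most 1.23 CPM, as in replicate 2 of primary microglia without LPS. Such limits, and the counting intervals below, cover counting error only. The ribosomal RNA precursor Rn45s took 50.3%, 51.7% and 40.9% of gene counts in primary microglia without LPS and 43.7%, 15.7% and 16.0% with LPS, against 27.0% to 30.1% in BV2 cells. With Rn45s left out of the fits, the number of these chemokine genes called was the same in each comparison. On library totals that count Rn45s, without TMM, replicate 1 of primary microglia with LPS stood apart from replicates 2 and 3. Chi-square over degrees of freedom was 67.1 and 73.4, against 2.79 between replicates 2 and 3. The part of Rn45s in these values was not tested. Without replicate 1 the number of these chemokine genes that passed each test was the same, and no passing log2 difference moved by more than 0.152. Of 16 microglial markers, none was at 0 in primary cells and Sall1 was at 0 in BV2 cells. Their summed level was 2992 to 3486 CPM in primary microglia without LPS and 3498 to 4031 CPM with it, and 2492 to 2615 CPM in BV2 cells over both conditions. Of 15 tested in primary microglia, 4 rose with LPS and 3 fell, beside 21.4% and 17.8% of all genes tested there. In BV2 cells 1 of 13 rose, beside 3.69% of all genes. Single markers lay apart between the cell types in either direction. Without LPS, mean Cx3cr1 was 130 CPM in primary and 2.89 CPM in BV2 cells, and mean C1qb was 225.5 and 465 CPM. Primary libraries also held markers of other cells. The summed level of 10 astrocyte markers was 896 to 1487 CPM without LPS and 899 to 1572 CPM with LPS, while 8 of them were at 0 in BV2 cells in both conditions. Gfap made up most of that sum (701 and 724 CPM). Of 9 astrocyte markers tested in primary microglia, Aqp4 rose with LPS (log2 fold change 0.93, adjusted p = 0.000846), and Sox9 (-1.90), Fgfr3 (-0.97) and Gja1 (-0.50) fell. The shares of all genes tested there were again 21.4% rising and 17.8% falling. For 7 fibroblast markers the sums were 111 to 332 CPM without LPS and 86.1 to 143 CPM with it. Those of 9 oligodendrocyte lineage markers were 222.5 to 227.3 CPM without LPS and 197.4 to 246.6 CPM with it. For 8 neuron markers they were 87.27 to 90.35 CPM and 82.27 to 96.39 CPM. Most of that was Map2 (mean 40.95 and 32.79 CPM), Tubb3 (23.35 and 23.15 CPM) and Stmn2 (19.13 and 24.5 CPM). Gad1 had means of 2.53 and 6.82 CPM. Those of Rbfox3, Slc17a7, Syt1 and Snap25 were at most 1.46 CPM. Endothelial and mural markers summed to 75.6 to 82.3 CPM without LPS and 55.6 to 92.4 CPM with it, mostly Acta2 (mean 66.4 and 66.8 CPM). In BV2 cells without LPS that sum was 100.5 to 128.8 CPM, mostly Kdr (mean 113.5 CPM). Monocyte and neutrophil markers in primary microglia summed to 77.9 to 87.9 CPM without LPS and 101.1 to 106.8 CPM with it, mostly Vcan (mean 78.7 and 98.4 CPM). The part of these other cells in the chemokine values was not tested. In bulk RNA, fewer cells of a type and less RNA per cell cannot be told apart.

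In the mm10 build, 8 of the 10 genes lie on chromosome 11. Ccl2, Ccl7 and Ccl12, the ligands of CCR2, lie within 67.8 kb (chr11:82035571-82103400), all on the plus strand. Ccl5, Ccl9, Ccl6, Ccl3 and Ccl4 lie within 138.9 kb further along (chr11:83525778-83664683). Ccl22 and Ccl17 lie within 66.4 kb on chromosome 8 (chr8:94745590-94812036) with Cx3cl1, the fractalkine gene, between them.

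The RefSeq promoter table (GRCm38.p6) held 6 of the 10 genes, Ccl3, Ccl6, Ccl9, Ccl12, Ccl17 and Ccl22. The 250 bases before the start are shown for 4 of them whose responses set the range of the results. Ccl3 had the highest level per kilobase with LPS, Ccl12 was called for LPS in primary microglia and not in BV2 cells, Ccl9 rose moderately in both cell types, and Ccl6 was called in neither. The positions are chr11:83649379-83649628 (minus strand) for Ccl3, chr11:82101595-82101844 (plus strand) for Ccl12, chr11:83578637-83578886 (minus strand) for Ccl9 and chr11:83593088-83593337 (minus strand) for Ccl6. Each runs 5′ to 3′ toward the start, and capitals mark matches to the motifs named after them.
Ccl3: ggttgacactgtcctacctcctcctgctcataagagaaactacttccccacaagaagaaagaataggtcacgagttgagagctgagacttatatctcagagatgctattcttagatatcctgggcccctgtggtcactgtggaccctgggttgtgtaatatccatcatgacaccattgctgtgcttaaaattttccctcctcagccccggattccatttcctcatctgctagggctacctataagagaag
Ccl12: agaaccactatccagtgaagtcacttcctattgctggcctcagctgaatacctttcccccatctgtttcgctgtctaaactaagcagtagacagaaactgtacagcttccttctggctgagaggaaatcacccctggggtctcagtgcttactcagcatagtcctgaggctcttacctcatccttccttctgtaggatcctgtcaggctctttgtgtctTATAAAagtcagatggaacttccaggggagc
Ccl9: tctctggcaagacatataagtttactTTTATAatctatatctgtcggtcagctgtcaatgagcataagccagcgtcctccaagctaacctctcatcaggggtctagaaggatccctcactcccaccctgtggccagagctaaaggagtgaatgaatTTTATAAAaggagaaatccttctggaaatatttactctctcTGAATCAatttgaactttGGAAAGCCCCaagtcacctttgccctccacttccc
Ccl6: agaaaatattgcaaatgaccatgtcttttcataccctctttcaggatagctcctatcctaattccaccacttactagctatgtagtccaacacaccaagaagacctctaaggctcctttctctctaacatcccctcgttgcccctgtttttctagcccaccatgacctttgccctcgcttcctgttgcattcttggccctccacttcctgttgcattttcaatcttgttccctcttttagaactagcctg
Both strands were searched for the 10-base NF-kB consensus, the interferon response motif GAAANNGAAA, the AP-1 motif TGANTCA and the TATA motif TATAAA, the last chosen after the data were seen. Ccl9 held the NF-kB consensus at 35 to 26 bases before the start, on the opposite strand, and the AP-1 motif at 53 to 47 bases before it. Ccl9 also had 3 matches to the TATA motif, of which those at 94 to 89 and 92 to 87 bases overlap on opposite strands. Ccl12 held the TATA motif at 31 to 26 bases before its start. No match to any of these motifs lay in the windows of Ccl3, Ccl6, Ccl17 or Ccl22, which says only that these letters are not there. Among 32536 promoters of the same length, 7.28% held the NF-kB consensus, 2.98% the interferon response motif, 6.73% the AP-1 motif and 12.3% the TATA motif. Aligned pairwise, the 6 windows were identical at 44.0% to 49.2% of positions.

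In primary microglia, LPS raised 8 of the 9 chemokine genes that had enough counts to be tested, and 0 fell. Over all 10664 genes tested there, 21.4% rose and 17.8% fell at an adjusted p under 0.05 (edgeR's quasi-likelihood test with Benjamini-Hochberg adjustment, as throughout). The median log2 fold change of the 9 genes was 8.46, against -0.03 over all genes tested. Ccl2, Ccl4, Ccl5, Ccl7, Ccl12 and Ccl22 had under 10 counts in every primary library without LPS. They passed the filter on low counts only through the libraries with LPS, so a fall could hardly have been called for them. In BV2 cells 6 of 8 tested genes rose and 0 fell, where 3.69% of 9321 genes rose and 1.51% fell. Their median log2 fold change was 2.36, against -0.01 over all genes tested. There Ccl5 and Ccl12 likewise had under 10 counts in each library without LPS and passed the filter only through those with LPS. Ccl6 was tested in both cell types and passed in neither. Summed over the 10 genes, the level was 57.7, 41.7 and 53.5 CPM in primary microglia without LPS and 7727, 8323 and 8984 CPM with LPS. The sums in BV2 cells were 320.0 and 304.7 CPM without LPS and 2181 and 2596 CPM with it. Primary microglia thus held the lowest sums without LPS and the highest with LPS, with no overlap between groups.

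**Figure D1:**
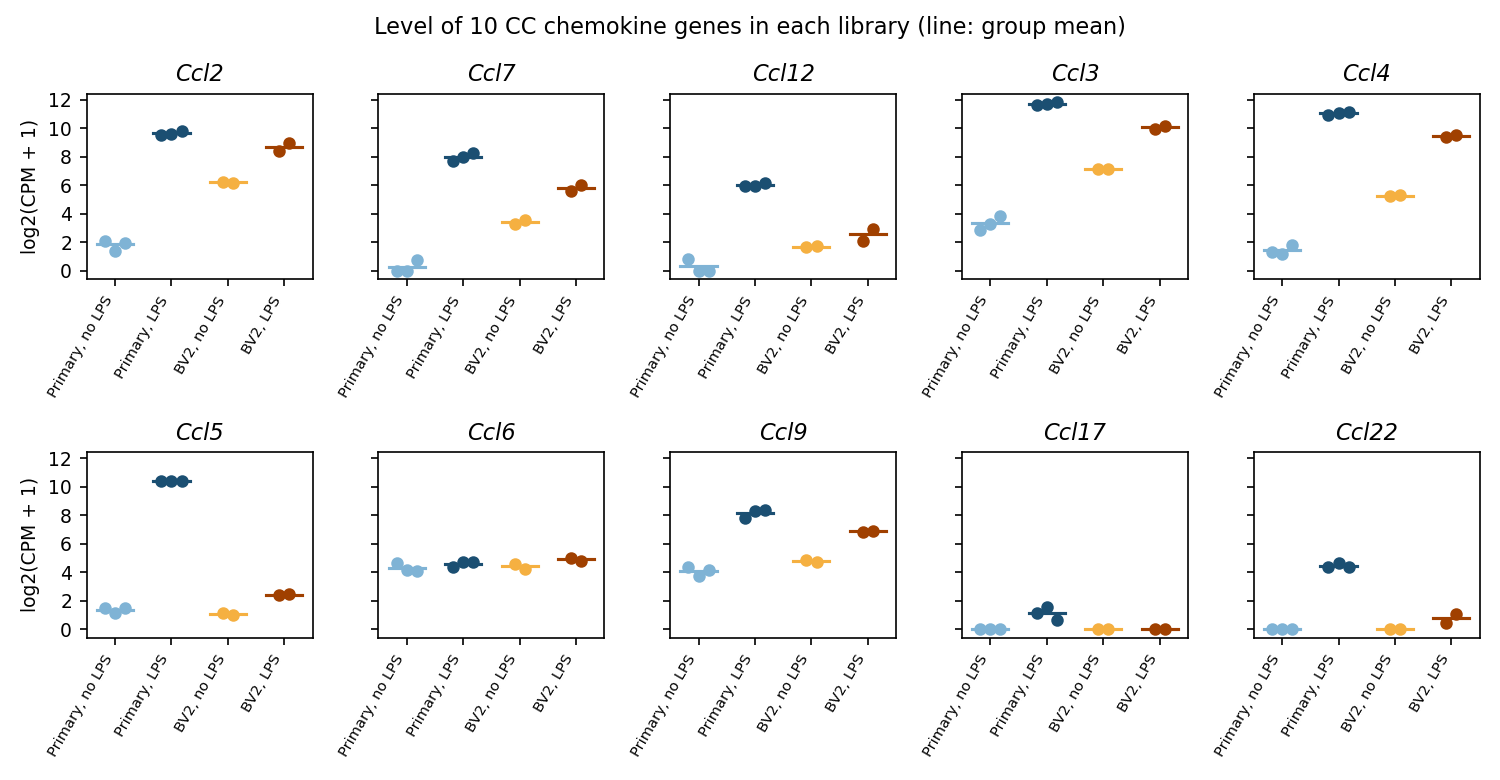
Level of each gene in each library as log2(CPM + 1), with 1 point per library and a line at the group mean, for primary microglia (blue, n = 3 per group) and BV2 cells (orange and brown, n = 2 per group). Ccl5 with LPS sits at 1363 to 1379 CPM in primary microglia and at 4.36 and 4.51 CPM in BV2 cells, while the groups of Ccl6 lie close together.

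Of the CCR2 ligands, Ccl2 encodes the main monocyte attractant. Its level was 3.37, 1.64 and 2.82 CPM in primary microglia without LPS and 744, 775 and 897 CPM with LPS. In BV2 cells it was 75.8 and 69.7 CPM without LPS and 334 and 495 CPM with LPS. The groups did not overlap, and unstimulated BV2 cells stood well above unstimulated primary cells. The log2 fold change with LPS was 8.22 ± 0.19 (SE; 298-fold, adjusted p = 8.13e-17) in primary microglia and 2.55 ± 0.18 (5.85-fold, adjusted p = 2.55e-06) in BV2 cells.

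Ccl7, whose product binds CCR2 and other receptors, had 0, 0 and 2 counts in primary microglia without LPS. With LPS the level was 212, 254 and 301 CPM there. BV2 cells had 8.73 and 10.9 CPM without LPS and 47.3 and 63.7 CPM with it. The 4 groups did not overlap and kept the order seen for Ccl2. The ratio of group levels in primary microglia was 1035 (95% counting interval 286 to 8550), which rests on those 2 counts in replicate 3, without which the log2 fold change of the fit went from 9.75 to 12.51 (adjusted p = 1.17e-12 with all libraries). The BV2 response was 2.54 ± 0.24 on the log2 scale (5.81-fold, adjusted p = 2.20e-05).

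Ccl12 encodes a further CCR2 ligand of rodents. Without LPS it had 2, 0 and 0 counts in primary microglia and 2.18 and 2.31 CPM in BV2 cells. With LPS it reached 60.3, 61.6 and 70.0 CPM in primary microglia but only 3.36 and 6.48 CPM in BV2 cells. Its ratio in primary microglia was 257 (95% counting interval 70.7 to 2123, adjusted p = 2.14e-12), which rests on the 2 counts in replicate 1, without which the fitted log2 fold change went from 7.75 to 10.54. In BV2 cells the log2 fold change was 1.18 ± 0.48 with an adjusted p of 0.265, so no call was made at 10 and 23 counts with LPS. Ccl2 and Ccl12 are close relatives, but no stretch of 50 bases in the longest coding transcript of either occurs in a transcript of another gene.

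Ccl3 (MIP-1 alpha), Ccl4 and Ccl5 encode inflammatory chemokines. Ccl3 had the highest mean level per kilobase of transcript of all 10 genes in 3 of the 4 groups. It stood at 6.37, 8.59 and 13.4 CPM in primary microglia without LPS and at 3156, 3314 and 3687 CPM with LPS. The BV2 values were 144 and 139 CPM without LPS and 988 and 1154 CPM with it. LPS raised it by 8.46 ± 0.20 on the log2 scale in primary microglia (351-fold, adjusted p = 4.24e-16) and by 2.96 ± 0.13 in BV2 cells (7.76-fold, adjusted p = 2.17e-08).

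Ccl4 (MIP-1 beta), next to Ccl3 on the chromosome, had 4, 3 and 7 counts in primary microglia without LPS (1.23 to 2.46 CPM) and stood at 1909, 2198 and 2283 CPM with LPS. In BV2 cells it was at 37.4 and 38.3 CPM without LPS and at 660 and 726 CPM with it. Its log2 fold change was the largest of these genes in BV2 cells, 4.23 ± 0.14 (18.7-fold, adjusted p = 1.73e-09). In primary microglia it was 10.20 ± 0.20 (1173-fold, adjusted p = 6.02e-18). The per-kilobase ratio of Ccl3 to Ccl4 was 3.66 to 6.03 in primary microglia and 3.13 and 3.31 in BV2 cells without LPS. With LPS that ratio was 1.30 to 1.42 in primary microglia and 1.29 and 1.37 in BV2 cells, so within each cell type the ranges with and without LPS did not overlap.

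Ccl5 (RANTES) had the widest gap between the cell types with LPS. Without LPS it had 5, 3 and 5 counts in primary microglia (1.87, 1.23 and 1.76 CPM) and 4 and 3 counts in BV2 cells (1.25 and 0.991 CPM), and these ranges overlapped. With LPS the primary libraries stood at 1379, 1363 and 1368 CPM, a range far narrower than those of Ccl2, Ccl3 and Ccl4. BV2 libraries with LPS stood at 4.36 and 4.51 CPM, or 13 and 16 counts. The log2 fold change was 9.66 ± 0.18 in primary microglia (810-fold, adjusted p = 4.56e-18). In BV2 cells it was 1.98 ± 0.51 (3.95-fold, adjusted p = 0.0431), a call that was lost with DESeq2 (adjusted p = 0.507), with the replicate block (adjusted p = 0.0524) and without each of the 4 BV2 libraries in turn (adjusted p from 0.0843 to 0.307). Per kilobase, Ccl5 was 2.33 to 2.83 times Ccl2 in primary microglia with LPS and 0.0139 and 0.01997 times Ccl2 in BV2 cells with LPS.

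**Figure D2:**
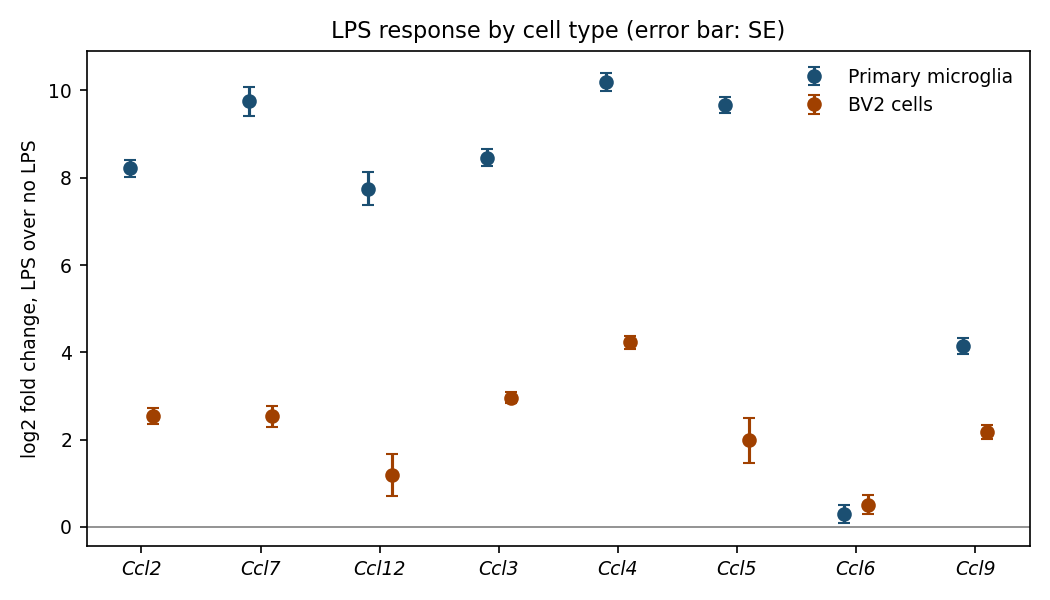
Log2 fold change with LPS over no LPS (vertical axis, ± SE) for the 8 genes tested in both cell types, in primary microglia (blue) and BV2 cells (brown). Ccl6 lies near 0 in both, and Ccl5 shows the widest gap, 9.66 against 1.98.

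Ccl6 and Ccl9, the CCR1 ligands, lie next to each other on chromosome 11. Ccl6 was at 24.4, 16.8 and 15.8 CPM in primary microglia without LPS and at 19.6, 25.2 and 25.2 CPM with it. In BV2 cells the levels were 23.4 and 18.2 CPM without LPS and 31.2 and 26.8 CPM with LPS. The ranges with and without LPS overlapped in primary cells and not in BV2 cells. Its log2 fold change was 0.29 ± 0.21 in primary microglia (adjusted p = 0.282) and 0.51 ± 0.21 in BV2 cells (adjusted p = 0.287). Ccl9 went from 19.5, 12.3 and 16.5 CPM to 226, 307 and 333 CPM in primary microglia. In BV2 cells it went from 27.5 and 25.1 CPM to 113 and 119 CPM. LPS raised it by 4.14 ± 0.19 on the log2 scale in primary microglia (17.7-fold, adjusted p = 3.42e-11) and by 2.17 ± 0.16 in BV2 cells (4.51-fold, adjusted p = 2.82e-06). Of 2957 stretches of 50 bases in the Ccl9 transcript, 59 also occur in transcripts of other genes, against 0 for the other 9 chemokine genes.

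Ccl22 and Ccl17, the genes of the CCR4 ligands, had the lowest levels per kilobase of these genes in primary microglia with LPS. In CPM, the range of Ccl22 overlapped that of Ccl6. Ccl22 had 0 counts in each of the 5 libraries without LPS. With LPS it reached 20.0, 24.2 and 19.6 CPM in primary microglia (adjusted p = 2.84e-09). That is 56.4-fold the level that 3 counts over the control group would give. BV2 cells with LPS had 1 and 4 counts of Ccl22, 1.59-fold by the same reckoning, with too few counts for the main test. It did not pass there without the filter on low counts (adjusted p = 0.424) or in the fit of all 10 libraries (adjusted p = 0.177). Ccl17 was read only in primary microglia with LPS, at 3, 6 and 2 counts (1.18, 1.91 and 0.567 CPM). That is 3.17-fold the level that 3 counts over primary microglia without LPS would give. These folds of Ccl22 and Ccl17 take the counts with LPS as exact, so the true ratios may be smaller. Too few counts kept Ccl17 out of every main comparison.

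The responses themselves were compared between the cell types in a fit of all 10 libraries. Of 8 genes tested, 7 responded more in primary microglia and 0 less, beside 8.65% of 11626 genes with a higher response and 3.54% with a lower one. Ccl5 and Ccl12 passed the filter on low counts in that fit only through libraries with LPS. Ccl5 showed the widest difference of log2 responses, 7.73 ± 0.78 (adjusted p = 2.11e-08). Ccl7 followed at 7.27 ± 0.58 and Ccl12 at 6.63 ± 0.84, both resting on the 2 control counts given above. Without the libraries that hold those counts the fitted differences were 10.00 for Ccl7 and 9.41 for Ccl12, and without primary replicate 3 without LPS that of Ccl12 was 5.95. Ccl4 (6.02 ± 0.28), Ccl2 (5.72 ± 0.30) and Ccl3 (5.55 ± 0.24) lay close together. Ccl9 had a smaller difference, 2.02 ± 0.27 (adjusted p = 2.30e-06), and that of Ccl6 was -0.17 ± 0.31 (adjusted p = 0.891). For Ccl22 the difference could not be fitted because both control groups were at 0, and Ccl17 was not tested.

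Without LPS, BV2 cells had the higher level of 6 of the 8 tested genes. Over all genes, 41.5% were higher and 32.5% lower in primary microglia. The median log2 difference, primary minus BV2, was -3.43 for the 8 genes and 0.23 over all genes. Ccl2 differed by -4.76 ± 0.25 (27.2-fold higher in BV2 cells, adjusted p = 1.41e-14), Ccl4 by -4.40 ± 0.25 (21.1-fold) and Ccl3 by -3.89 ± 0.19 (14.8-fold). Ccl7 was 38.9 times higher in BV2 cells (95% counting interval 10.3 to 329) and Ccl12 was 8.94 times higher (2.05 to 81.0). Leaving out primary replicate 3 moved the fitted log2 difference of Ccl7 from -5.07 to -7.86 and that of Ccl12 from -2.96 to -2.35, and leaving out replicate 1 moved Ccl12 to -5.77. Ccl9 differed by -0.70 ± 0.21 (adjusted p = 0.00504), a call lost without primary replicate 2 (-0.53, adjusted p = 0.0522). Ccl5 (0.52 ± 0.50, adjusted p = 0.460) and Ccl6 (-0.13 ± 0.23, adjusted p = 0.606) did not pass. Ccl17 and Ccl22 had 0 counts in both groups, so no fold is given.

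With LPS the order was turned round for the 6 genes that were higher in BV2 cells without it. Ccl5 had not passed without LPS, and Ccl22 had 0 counts there in both cell types. Primary microglia had the higher level of 8 of the 9 tested genes, beside 43.1% of all genes higher and 30.7% lower in them. The median log2 difference of the 9 genes was 1.66, against 0.29 over all genes. Ccl5 was 306-fold higher in primary microglia (log2 difference 8.26 ± 0.19, adjusted p = 1.34e-22). Ccl22 was higher by 4.73 ± 0.44 on the log2 scale and Ccl12 by 3.66 ± 0.27. Ccl22 passed the filter on low counts only through the primary libraries with LPS, so a lower level there could hardly have been called. Without BV2 replicate 2 with LPS, which holds 4 of the 5 BV2 counts of Ccl22, its difference was 5.81. Ccl7 (2.20 ± 0.18), Ccl3 (1.66 ± 0.14), Ccl4 (1.62 ± 0.13), Ccl9 (1.32 ± 0.16) and Ccl2 (0.96 ± 0.15) differed less, and Ccl6 did not pass (-0.30 ± 0.21). Ccl17 in primary microglia stood at 2.60-fold the level that 3 counts over the BV2 group would give, with its own 11 counts taken as exact.

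**Figure D3:**
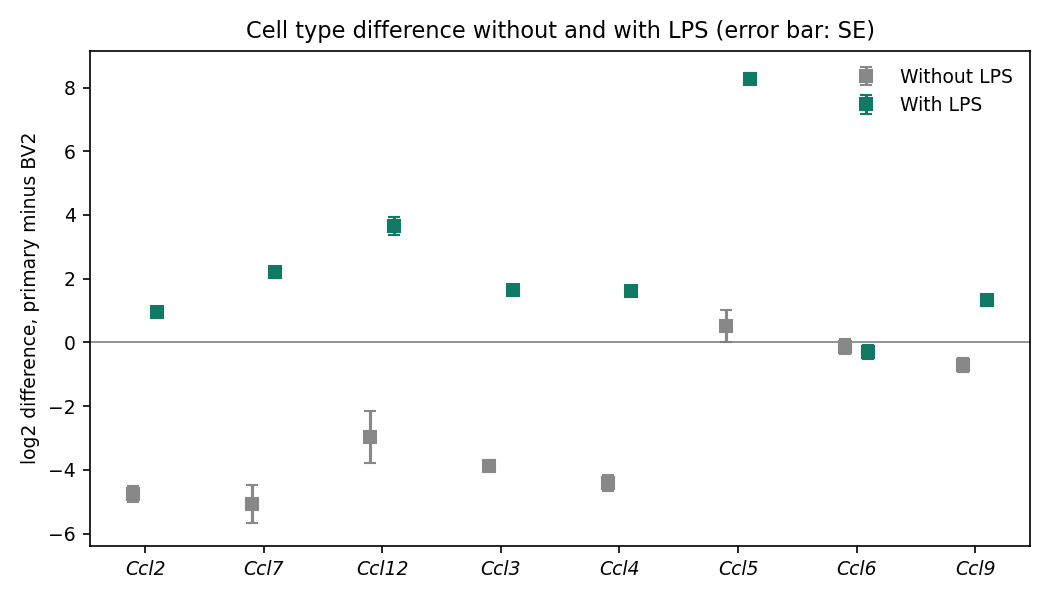
Log2 difference of primary microglia minus BV2 cells (vertical axis, ± SE) without LPS (grey) and with LPS (green) for the 8 genes tested in both. Ccl2, Ccl7, Ccl12, Ccl3, Ccl4 and Ccl9 lie below 0 without LPS and above 0 with LPS, while Ccl5 goes from 0.52 to 8.26.

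Ranked by CPM per kilobase, Ccl6 (13.2 ± 3.24, SD, n = 3) and Ccl3 (12.3 ± 4.67) led in primary microglia without LPS, and their ranges overlapped. With LPS the order in those cells was Ccl3 (4420 ± 356), Ccl4 (3227 ± 296), Ccl5 (2575 ± 14.97), Ccl2 (991 ± 99.2), Ccl7, Ccl12, Ccl9, Ccl6, Ccl22 and Ccl17, and no neighbours in it overlapped. In BV2 cells with LPS it was Ccl3 (1398 ± 153, n = 2), Ccl4 (1050 ± 70.2), Ccl2 (510.0 ± 140.3), Ccl7, Ccl9, Ccl6, Ccl12, Ccl5, Ccl22 and Ccl17, where only Ccl12 and Ccl5 overlapped. As a share of the summed per-kilobase level, Ccl5 took 20.4% to 23.6% in primary microglia with LPS and 0.251% and 0.290% in BV2 cells with LPS. The share of Ccl2 was 8.12% to 8.76% in primary microglia with LPS and 14.5% and 18.1% in BV2 cells with LPS. The share of Ccl6 in primary microglia was 24.3% to 39.3% without LPS and 0.124% to 0.149% with LPS, while its own level overlapped between those groups.

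**Figure D4:**
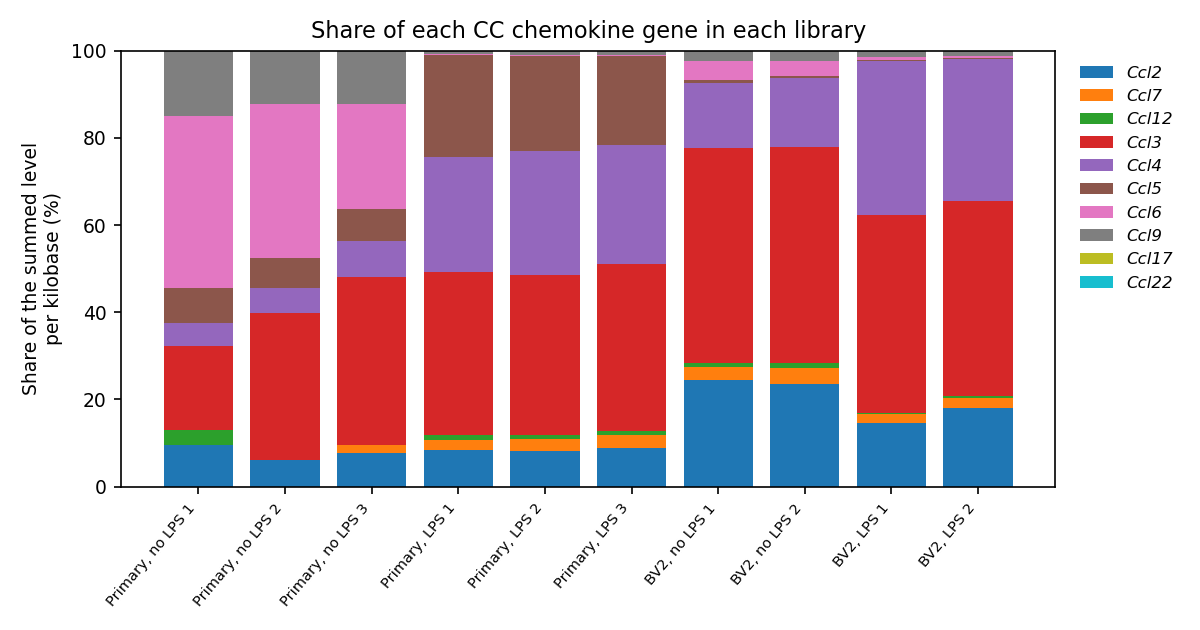
Share of each gene in the summed CPM per kilobase of the 10 genes (vertical axis, percent) in each library. Ccl3 and Ccl4 make up most of the sum in both cell types with LPS, and the Ccl5 block of 20.4% to 23.6% is seen only in the 3 primary libraries with LPS.

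Likeness of profile was measured over the 10 libraries as the root-mean-square difference of log2(CPM + 1) after centring each gene on its own mean, among 11625 other genes. Ccl3 and Ccl7 were each other's nearest gene (0.44), and Ccl2 was nearest to Ccl3 (0.50). Clec4e was the second nearest to Ccl2 (0.52) and to Ccl3 (0.49), and Oasl1 to Ccl7 (0.63). Ccl4 was nearest to Tnf (0.57) and Cd40 (0.61), and Ccl9 to Tlr2 (0.22) and Sod2 (0.24). Ccl5 was nearest to Mx1 (0.38) and Il12b (0.52), and its nearest chemokine of the 10, Ccl12, ranked 99th at 2.01. Ccl12 was nearest to Phf11d (0.28) and Oas2 (0.32), and Ccl22 to Dhx58 and Parp9 (both 0.22). Ccl6 was nearest to Ubox5 (0.14) and Hus1 (0.17). Low genes lie closer on this scale, since the pseudocount of 1 CPM narrows their differences, and the libraries share 4 groups, so these values describe and are not tested.

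Of 10 CC chemokine receptors, 2 had enough counts to be tested, in primary microglia alone, and 0 passed. Mean levels of Ccr1 there were 12.7 CPM before and 10.2 CPM after LPS (adjusted p = 0.367). Ccr2 had 2 counts over all 10 libraries, both in BV2 cells, and Ccr4 had 0. Of 5 genes listed as atypical receptors and scavengers, Ccrl2, a receptor that does not signal through G proteins, rose in both cell types. Its log2 fold change was 5.63 ± 0.15 in primary microglia (17.1 to 857 CPM) and 4.69 ± 0.34 in BV2 cells (1.12 to 29.3 CPM). Pitpnm3, also on that list, fell by 1.86 in primary microglia, and the other 3 had too few counts. Whether the Pitpnm3 product binds CC chemokines was not tested. Among 13 other CC chemokines only Ccl25 was tested, in BV2 cells, and it did not pass (adjusted p = 0.931). Of 8 proteases that can trim chemokines, 6 were tested in primary microglia, where Mmp3 (1.57), Mmp9 (1.48) and Mmp12 (0.76) rose on the log2 scale and Ctsd fell by 0.45, beside 21.4% of all genes rising and 17.8% falling there. In BV2 cells 0 of 2 passed.

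Upstream of the chemokine genes, 5 of 12 tested genes of the LPS receptor complex and its adaptors rose and 1 fell in primary microglia, and 4 of 10 rose in BV2 cells, beside 21.4% and 17.8% of all genes in primary microglia and 3.69% rising in BV2 cells. Tlr4 itself did not pass in either (adjusted p = 0.593 and 0.0948), while Cd14, its co-receptor, rose by 3.42 ± 0.13 in primary microglia and 1.19 ± 0.11 in BV2 cells on the log2 scale. All 11 genes of NF-kB subunits and IkB proteins rose in primary microglia, with a median log2 fold change of 2.68, and 8 of 10 rose in BV2 cells, with a median of 1.62. The largest in primary microglia was Nfkbiz, which encodes a nuclear IkB protein (4.70 ± 0.14 there and 4.19 ± 0.18 in BV2 cells). Of 11 genes of the interferon branch, 9 rose in primary microglia, and 2 of 10 rose in BV2 cells, Irf1 (1.73 ± 0.21) and Irf9 (1.44 ± 0.26). Ifnb1, which encodes interferon beta, had 0 CPM without LPS in both cell types. It was at 11.5 CPM with LPS in primary microglia. The BV2 libraries with LPS had 0 and 0.336 CPM (mean 0.168 CPM), under the limit of 3 counts, and Ifnb1 was not tested there. Irf7, a transcription factor of that branch, rose by 8.33 ± 0.23 in primary microglia and had 0.79 ± 0.27 in BV2 cells (adjusted p = 0.155). The differences between the cell types were not tested for these upstream genes.

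Among 12 genes tied to control of Ccl17 and Ccl22, 8 were tested in each cell type. In primary microglia Stat5a rose (2.04 ± 0.21), Csf2, the gene of GM-CSF, went from 0 to 12.1 CPM (adjusted p = 1.46e-07), and Stat6 fell by 0.54, while 0 of 8 passed in BV2 cells. The 2 rises and 1 fall of 8 are near the shares of all genes in primary microglia, 21.4% and 17.8%. Over all genes in BV2 cells, 3.69% rose and 1.51% fell. Irf4 had 36 counts in all and was not tested, and Kdm6b, a H3K27 demethylase gene, did not pass in primary microglia (0.68 ± 0.27, adjusted p = 0.0563). Of 6 factors that control the decay of chemokine mRNA, 4 rose and 2 fell in primary microglia, and 2 rose in BV2 cells. Zc3h12a, which encodes the ribonuclease Regnase-1, rose in both (3.41 ± 0.15 and 2.96 ± 0.25), as did Zfp36, the gene of tristetraprolin (1.98 ± 0.15 and 1.66 ± 0.26). Zfp36l2 fell by 2.41 in primary microglia. Among 8 dendritic cell markers only Fscn1 was tested in primary microglia, where it rose by 1.02 on the log2 scale. The list's summed level there was 79.7 to 85.5 CPM without LPS and 149 to 186 CPM with LPS, nearly all of it Fscn1 (mean 80.6 and 165 CPM). Zbtb46 was at 2.51 and 1.98 CPM, and the other 6 markers had means of at most 0.235 CPM. The part of dendritic cells in the Ccl17 and Ccl22 values was not tested.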

How the data were processed

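Libraries were strand-specific and depleted of ribosomal RNA, per the labels' protocols. CASAVA 1.8.2, Trimmomatic 0.33, STAR 2.5.1, DESeq2 and the mm10 build are named in the submitters' processing notes. The deposited values are raw read counts by gene symbol, unstranded and for each strand. For their annotation, the sources used here give no name. The reverse-strand column was used, since 0.682% to 2.21% of stranded gene reads fell in the forward column. Reads assigned to no gene, 70.4% to 79.5% of the total, were left out.

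Counts were tested with edgeR 4.0.16 and limma 3.58.1 in R 4.3.3 (robust quasi-likelihood F test, TMM, filterByExpr with a minimum count of 10 and total of 15, Benjamini-Hochberg adjustment over all genes tested). Calls were made at an adjusted p under 0.05. LPS was tested in the 6 primary and the 4 BV2 libraries separately. The difference of responses and the cell type differences came from a fit of all 10 libraries. Levels in CPM use TMM-scaled sizes from all 10 libraries, and SE is the log2 fold change over the square root of F. Transcript lengths are those of the longest coding transcript in GENCODE M21. Intervals of ratios are exact and at 95%. Promoters are 250-base windows from RefSeq.

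The members and gene lists were chosen with earlier results of these data known. All 10 genes are named, tested or not. Up to 4 called genes per list are named by size of change, plus genes with an obvious role to a member, and the 2 genes most like each. On totals that count Rn45s, no replicate pair agreed within sampling noise (lowest chi-square over degrees of freedom 1.55), and all libraries count as separate. Not every pair of primary libraries with the same number deviated together. The deviations were taken on totals that count Rn45s and cannot settle whether libraries were paired. Primary replicate 3 without LPS had correlations of 0.248 with replicate 2 with LPS and 0.226 with replicate 3. Numbers were not used to pair samples in the main fits. In simulated data the test recovered 100% of 4-fold and 88% of 2-fold changes in primary microglia (10421 genes), 99% and 71% in BV2 cells (9203 genes) and 95% and 23% for the difference of responses (11047 genes), with 3.09%, 6.59% and 5.6% of calls false. The simulation gave all genes the same spread beyond counting error and held no library that stood apart. Only genes with more than a set level of counts were changed in it, so the rates in these data may differ. Alternatives were DESeq2 1.42.0, its size factors in edgeR, no filter, unstranded counts, Rn45s left out, the replicate block, the fit of all libraries and each library left out. Some listed genes are counted but not reported here by name.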

Additional observations from a re-analysis of the deposited data

Results flagged for a closer look

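For 7 genes the LPS response differed between primary microglia and BV2 cells by the test of the difference itself, larger in primary microglia each time. The differences of log2 responses were 7.73 for Ccl5, 7.27 for Ccl7, 6.63 for Ccl12, 6.02 for Ccl4, 5.72 for Ccl2, 5.55 for Ccl3 and 2.02 for Ccl9. Those of Ccl7 and Ccl12 rest on 2 counts each in primary microglia without LPS.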

How the results depend on the processing

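The number of these chemokine genes called stayed at 8 for LPS in primary microglia when any 1 library was left out, at 7 for the difference of responses and at 8 between the cell types with LPS. It was 5 for LPS in BV2 cells, where Ccl5 was lost, and 5 to 6 between the cell types without LPS. Without the filter on low counts 9 were called in primary microglia and between the cell types with LPS, Ccl17 being the addition. Over all genes, LPS called 485 in BV2 cells, 318 with DESeq2 and 353 to 800 with 1 library left out (800 without replicate 1 of BV2 cells with LPS). With the replicate block, 8 were called in primary microglia, 5 in BV2 cells and 7 for the difference of responses, and no other call of these genes than that of Ccl5 changed. Ccl6, called in none, changed sign in the difference of responses (-0.4004 to 0.0231 over the libraries left out, with 0.0231 without primary replicate 1 without LPS, and 0.0023 without BV2 replicate 2 without LPS) and between the cell types without LPS (-0.3346 to 0.0476, with 0.0463 without primary replicate 3, and 0.0476 without BV2 replicate 1, both without LPS). On totals that count Rn45s, same-numbered primary libraries had correlations of deviations of 0.212, -0.117 and 0.226, and BV2 libraries of 0.199. The cause of these changes was not tested. Depth limits Ccl17, Ccl22 in BV2 cells, and Ccl5, Ccl7 and Ccl12 without LPS, which rest on few counts.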
